A study of Oryza sativa and Oryza rufipogon with 8 samples.

Results

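The cytokinin oxidase/dehydrogenase (*CKX*) genes described here are *CKX1* (OS01G0187600), *CKX2* (OS01G0197700), *CKX3* (OS10G0483500), *CKX4* (OS01G0940000), *CKX5* (OS01G0775400) and *CKX11* (OS08G0460600). They were chosen by family membership, and all 6 were found among the 35679 *O. sativa* genes of the deposited tables. RefSeq lists all 6 names on the chromosomes that the identifiers carry, which are chromosome 1 for *CKX1*, *CKX2*, *CKX4* and *CKX5*, chromosome 10 for *CKX3* and chromosome 8 for *CKX11*. It also names *CKX9*, on chromosome 5, which is not among the 6. No gene was found there under the names *CKX6*, *CKX7*, *CKX8* and *CKX10*. None of these was analysed. Sums, shares and ranks below are therefore over these 6 genes and not over the whole family. The study pairs *CKX5* with ORUFI01G36000, 1 of 37071 genes listed for *O. rufipogon*, and names no partner for the other members.

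Root RNA was sequenced from *O. sativa* cv Nipponbare, a cultivated rice, and from the BRA 00004909-8 accession of *O. rufipogon*, a wild rice, at the 3-leaf stage. Plants had been in nutrient solution with no iron added (−Fe) or with 100 µM Fe+3-EDTA (control condition, CC) for 5 days. Each species had 2 −Fe and 2 CC libraries, 8 in all, and each library pooled material of 3 plants or biological replicates. Every *O. sativa* plant was of 1 cultivar and every *O. rufipogon* plant of 1 accession, so a difference between species is one between these accessions.

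Cytokinins are adenine-derived hormones that promote cell division in shoots and restrain root growth and branching. CKX enzymes end their action: they are flavoproteins that cut the side chain off isopentenyladenine and zeatin, and the cut is not reversible. In Arabidopsis, applied cytokinin lowers the expression of root iron uptake genes. In rice, weak alleles of *CKX2* raise the number of grains per panicle, high *CKX4* expression promotes crown roots, and *CKX11* is known from leaf senescence.

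Under −Fe, *CKX5* rose 4.94-fold in *O. sativa* roots, and it was the single member of the 6 to pass the false discovery rate (FDR) of 0.05. *CKX1* and *CKX4* each had 0.57 times their CC level under −Fe, and *CKX3* and *CKX11* had 1.30 and 1.33 times theirs, but none of these 4 passed the test over all genes. *CKX2* was close to the limit of detection in every library. In *O. rufipogon* roots the partner of *CKX5* rose 7.20-fold.

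Levels are given as CPM, the estimated counts of a gene scaled by the library total and the TMM factor, and as TPM, which also divides by transcript length, where genes are compared with each other. The test was the quasi-likelihood test of edgeR on the estimated counts, over the 25767 *O. sativa* genes that reached 5 counts in 2 or more libraries, and p values were adjusted by the Benjamini-Hochberg method. All 6 members passed this filter. Of the genes tested, 6.63% passed the FDR, 2.98% higher and 3.66% lower under −Fe. Among the *CKX* members 1 of 6 passed, higher, and 0 passed lower. At an unadjusted edgeR p under 0.05 the members were 3 higher and 2 lower, where all genes tested gave 8.74% higher and 11.5% lower. DESeq2 with its own adjustment called 1 member higher and 0 lower, and 3.02% of all genes higher and 3.67% lower. The median log2 fold change of the 6 members was 0.11, against −0.01 over all genes tested. On simulated *O. sativa* counts the test recovered 82% of genes changed by 1 on the log2 scale and 100% of those changed by 2. For *O. rufipogon* the shares were lower, 61% and 99%. Of the calls, 4.21% were false in *O. sativa* and 5.88% in *O. rufipogon*. The changed genes all had mean counts of 50 or more. Every simulated gene of a species had the same coefficient of variation between replicates, 11.8% in *O. sativa* and 16.8% in *O. rufipogon*. Recovery of more variable genes was therefore not measured.

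The total of the estimated counts was between 22911261 and 25312301 in the *O. sativa* libraries and between 14758304 and 18857150 in the *O. rufipogon* libraries, and a gene with 3 counts has between 0.119 and 0.203 CPM. The iron-response genes *IRT1*, *IRO2* and *YSL15* rose under −Fe in both species, with log2 fold changes between 1.98 and 5.13, and edgeR adjusted p values of 0.000692 or less. The study listed all 3 as up-regulated from these same libraries, so their rise is not independent evidence. Of 3 genes taken as root markers (*Lsi1* OS02G0745100, *Lsi2* OS03G0107300, *RCc3* OS02G0662000), 2 passed the FDR lower under −Fe, where 3.66% of all genes tested did. All 3 were lower with an unadjusted edgeR p under 0.05, where 11.5% of all genes tested were. OS02G0662000, short of the FDR, was at −0.91 in log2 fold change. All were abundant, with a summed level of 1620 and 2014 TPM in −Fe, against 4230 and 3976 TPM in CC *O. sativa* libraries. Of 5 genes taken as markers of green tissue, 0 passed in either direction by edgeR or DESeq2 and 0 had an unadjusted edgeR p under 0.05. Their summed level was 401 and 172 TPM under −Fe, against 292 and 468 TPM under CC. The part of these shifts in the *CKX* values was not tested, and in bulk roots fewer cells of a type and less RNA per cell cannot be told apart.

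*CKX5*, a cytokinin dehydrogenase that the study lists as up-regulated in both species, had 164 and 233 estimated counts in the −Fe libraries of *O. sativa*, against 36 and 40 under CC. These are 6.75 and 9.47 CPM under −Fe, against 1.54 and 1.73 CPM under CC. Both −Fe libraries lay far above both CC libraries, and the −Fe libraries differed more from each other than the CC libraries did. The mean was 8.11 ± 1.93 CPM under −Fe and 1.64 ± 0.13 CPM under CC (SD, n = 2 each), a log2 fold change of 2.30 (standard error 0.25, 95% interval 1.73 to 2.88, edgeR adjusted p = 0.000774). As a ratio this is 4.94-fold, with an interval from 3.32-fold to 7.35-fold. Of the 25767 genes tested, 265 had a larger log2 fold change. Because the study listed *CKX5* from these same libraries, the call is not independent evidence of its direction.

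*CKX1* had 3.25 and 3.46 CPM under −Fe, against 6.22 and 5.50 CPM under CC, from 79 and 85 counts under −Fe and 145 and 127 under CC. Both −Fe libraries lay below both CC libraries, with a log2 fold change of −0.80 (standard error 0.21, 95% interval −1.28 to −0.33), that is 0.573 times the CC level. It missed the threshold narrowly (edgeR adjusted p = 0.0573). The call changed with the filter on low counts. The edgeR adjusted p was 0.0417 with no filter and 0.0491 with at least 10 counts in every library. The log2 fold change remained between −0.81 and −0.80 with these filters. Of all 14 alternatives 3 passed and 11 did not, among them DESeq2 (DESeq2 adjusted p = 0.128) and the replicate block (edgeR adjusted p = 0.0997).

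*CKX4*, the member linked to crown roots, gave nearly the same values. It had 3.13 and 3.41 CPM under −Fe, from 76 and 84 counts, against 5.06 and 6.37 CPM under CC, from 118 and 147 counts. The −Fe libraries again lay below both CC libraries, and the CC libraries were the more spread pair. The log2 fold change was −0.80 (standard error 0.22, 95% interval −1.31 to −0.30), or 0.573 times the CC level, and it did not pass (edgeR adjusted p = 0.0706).

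*CKX3* was the most abundant member, with 16.8 and 15.1 CPM under −Fe, against 12.5 and 12.1 CPM under CC. Its counts were 408 and 372 under −Fe, against 292 and 279 under CC. The log2 fold change of 0.37 (standard error 0.13, 95% interval 0.09 to 0.66) did not pass (edgeR adjusted p = 0.127), although the conditions did not overlap.

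*CKX11*, the member known from senescing leaves, had 11.9 and 10.4 CPM under −Fe, against 9.09 and 7.71 CPM under CC. Its log2 fold change was 0.41 (95% interval 0.05 to 0.77, standard error 0.16, edgeR adjusted p = 0.182). Here too both −Fe libraries lay above both CC libraries, but the lower −Fe and the higher CC library were close. *CKX11* was the 1 member whose estimated counts were not whole numbers, from 178.204 in a CC library to 290.134 in a −Fe library, so that Kallisto had divided some of its reads with another gene, which adds an error that the test does not cover. The same was true of 37.1% of the *O. sativa* genes.

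*CKX2*, the grain-number gene, had 4 and 13 counts under −Fe, against 8 and 10 under CC. These are 0.165 and 0.528 CPM under −Fe and 0.343 and 0.433 CPM under CC, so that the −Fe libraries lay on either side of the CC libraries. A difference was not detectable at this depth: the 95% interval of the fold change ran from 0.298 to 2.70 (log2 fold change −0.16 with a standard error of 0.70, edgeR adjusted p = 0.935). Without −Fe replicate 1 the log2 fold change was 0.47, and without −Fe replicate 2 it was −1.20, so no direction can be given.

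**Figure D1:**
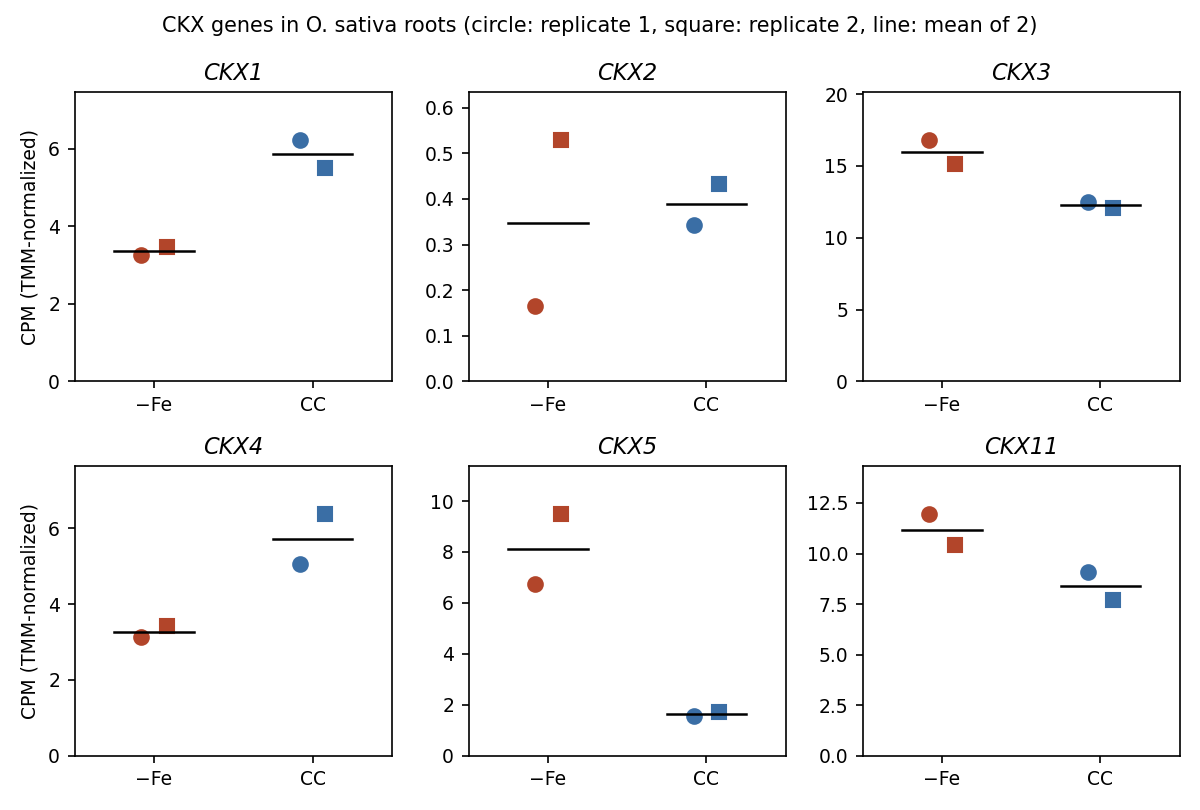
CPM (vertical axis, from 0, a separate scale for each gene) of the 6 *CKX* genes in the −Fe and CC libraries of *O. sativa*; circles are replicate 1, squares replicate 2 and lines the mean of 2. *CKX5* shows the widest gap, 6.75 and 9.47 under −Fe against 1.54 and 1.73 under CC, and *CKX2* is the member whose conditions overlap.

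The −Fe and CC libraries did not overlap in 5 of the 6 members, 3 with −Fe above and 2 with −Fe below. With 2 libraries per condition this is common, since 51.6% of all *O. sativa* genes tested did not overlap either, 24.5% with −Fe above and 27.1% with −Fe below. An exact permutation test of 1 gene with 2 against 2 libraries cannot give a two-sided p under 0.33. In size, the log2 fold change of *CKX5* exceeded that of 98.4% of the genes tested, those of *CKX1* and *CKX4* exceeded 89.3%, and those of *CKX11*, *CKX3* and *CKX2* exceeded 74.0%, 71.5% and 43.1%.

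**Figure D2:**
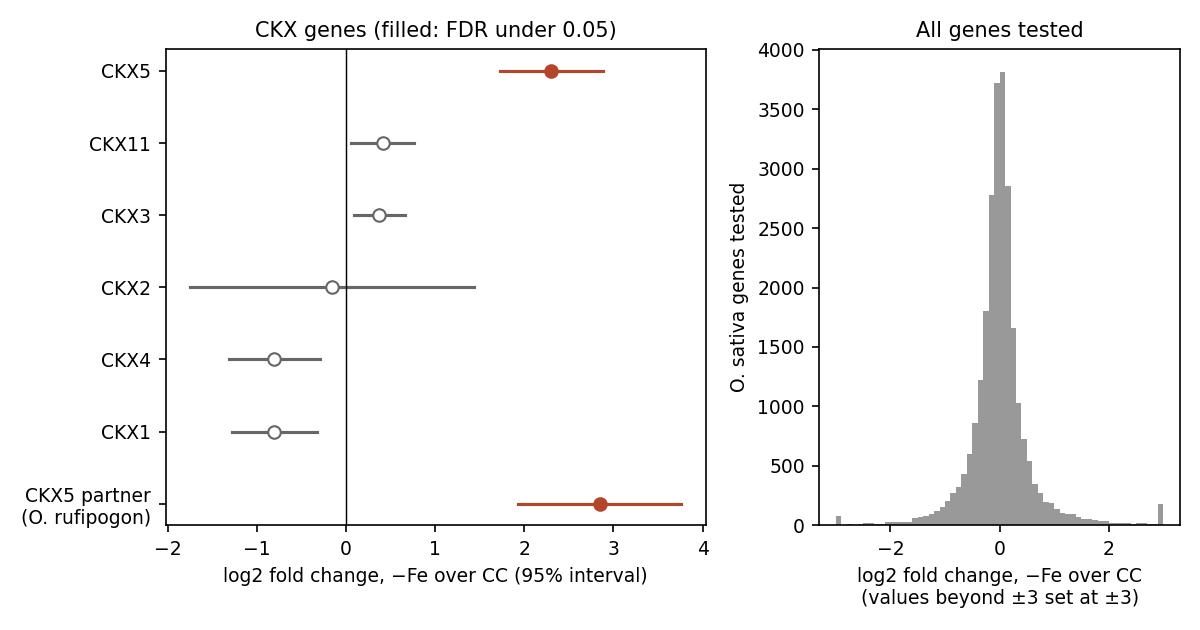
Left, log2 fold change of −Fe over CC with its 95% interval for the 6 *O. sativa* members and the *O. rufipogon* partner of *CKX5* (filled points passed the FDR of 0.05); right, the number of *O. sativa* genes in each bin of log2 fold change over all 25767 tested. *CKX5* at 2.30 and its partner at 2.85 stand far from 0, and the interval of *CKX2*, −1.75 to 1.43, is the widest.

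Each member has 1 annotated transcript, between 1707 nt (*CKX11*) and 2327 nt (*CKX4*) long, so that no shift between isoforms could be measured. Per length, the order under CC was *CKX3* (6.84 ± 0.25 TPM, SD, n = 2), *CKX11* (6.02 ± 0.76 TPM), *CKX1* (3.98 ± 0.39 TPM), *CKX4* (2.98 ± 0.45 TPM), *CKX5* (1.03 ± 0.07 TPM) and *CKX2* (0.22 ± 0.03 TPM). Under −Fe the order was *CKX3* at 8.75 ± 0.93 TPM, *CKX11* at 7.88 ± 1.02 TPM and then *CKX5* at 5.03 ± 1.03 TPM. *CKX1* at 2.24 ± 0.02 TPM, *CKX4* at 1.68 ± 0.05 TPM and *CKX2* at 0.19 ± 0.14 TPM followed. The neighbours *CKX3* and *CKX11* differed by less than the sum of their SDs in both conditions. All members were of moderate or low abundance: in a given library the share of *O. sativa* genes with a lower TPM was between 25.2% (*CKX2*) and 65.4% (*CKX3*).

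Ratios between members within 1 library do not depend on the scaling between libraries. *CKX5* had 1.93 and 2.55 times the TPM of *CKX1* in the −Fe libraries, against 0.231 and 0.294 times in the CC libraries. Relative to *CKX4*, *CKX5* stood at 2.61 and 3.36 under −Fe, against 0.369 and 0.329 under CC. *CKX5* was thus below both genes in each CC library and above both in each −Fe library. The ratio of *CKX3* to *CKX11* was 1.09 and 1.13 under −Fe, against 1.07 and 1.22 under CC, and that of *CKX1* to *CKX4* was 1.35 and 1.31 under −Fe, against 1.60 and 1.12 under CC. Within each of these 2 pairs the −Fe ratios lay inside the range of the CC ratios.

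Summed over the 6 genes, the transcript level was 26.3 and 25.3 TPM under −Fe, against 21.7 and 20.5 TPM under CC. The mean difference was 4.69 TPM, and that of *CKX5* alone was 3.99 TPM. *CKX3* and *CKX11* differed by 1.90 and 1.87 TPM, and *CKX1* and *CKX4* by −1.74 and −1.30 TPM, so that their differences nearly offset each other. *CKX5* made up 16.4% and 22.8% of the sum under −Fe, against 4.54% and 5.31% under CC. *CKX1* made up 8.46% and 8.92% under −Fe, against 19.6% and 18.1% under CC. The share of *CKX3* was 35.8% and 32.0% under −Fe, against 32.4% and 32.6% under CC, and was the largest of the 6 in every *O. sativa* library. TPM measures transcripts, and cytokinin content or enzyme activity was not measured in these data.

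**Figure D3:**
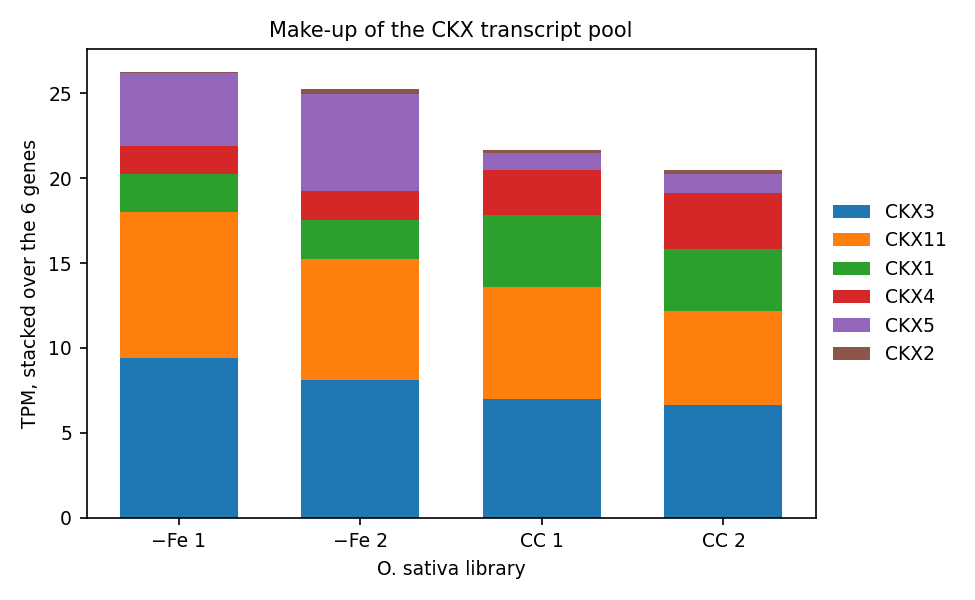
TPM (vertical axis, from 0) of the 6 *CKX* genes stacked in each *O. sativa* library, −Fe libraries at left and CC libraries at right. The −Fe stacks reach 26.3 and 25.3 TPM and the CC stacks 21.7 and 20.5 TPM, and the *CKX5* segment is the one that widens most.

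In *O. rufipogon*, the *CKX5* partner ORUFI01G36000 had 94 and 99 counts under −Fe, against 7 and 17 under CC. These are 5.53 and 5.23 CPM under −Fe, against 0.469 and 0.991 CPM under CC. The −Fe libraries were close together and far above both CC libraries, which were more spread. Of the *O. rufipogon* genes tested, 65.1% did not overlap between the conditions, 35.0% with −Fe above.
The mean was 5.38 ± 0.21 CPM under −Fe and 0.73 ± 0.37 CPM under CC (SD, n = 2 each), a log2 fold change of 2.85 (standard error 0.37, 95% interval 1.93 to 3.76, edgeR adjusted p = 0.00716), or 7.20-fold with an interval from 3.82-fold to 13.6-fold. In this species 16.0% of the 21081 genes tested passed the FDR, 11.9% higher and 4.15% lower under −Fe, and 720 genes had a larger log2 fold change. The study listed this partner from these same libraries, so its call too is not independent evidence of its direction. The call did not hold without −Fe replicate 1 (edgeR adjusted p = 0.0968), without −Fe replicate 2 (edgeR adjusted p = 0.0779) or among transcripts in place of genes (edgeR adjusted p = 0.0638), while the log2 fold change in these fits was between 2.83 and 2.91. The size of the change rested on the CC libraries, with a log2 fold change of 3.50 without CC replicate 2 and 2.40 without CC replicate 1. Without 1 of these −Fe libraries, 112 and 357 *O. rufipogon* genes passed in all, against 3378 with every library.

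The responses of the 2 species were compared as the species by treatment interaction over the 102 ortholog pairs that the study lists. For *CKX5* the interaction was 0.54 on the log2 scale, *O. rufipogon* minus *O. sativa* (standard error 0.53, 95% interval −0.62 to 1.69), and did not pass (edgeR adjusted p = 0.465). By this interval the response in *O. rufipogon* may be smaller or larger than in *O. sativa*, and equal responses are not shown. Of the 102 pairs, 35.3% passed this test. The study listed these pairs for a response in the same direction in both species, from these same libraries. This share is therefore not one over all genes. The interaction was 0.10 without *O. rufipogon* CC replicate 1 and 1.19 without *O. rufipogon* CC replicate 2. Levels per length were 4.39 ± 0.08 TPM under −Fe and 0.65 ± 0.32 TPM under CC in *O. rufipogon*, and 5.03 ± 1.03 TPM under −Fe and 1.03 ± 0.07 TPM under CC in *O. sativa* (SD, n = 2 each). The species were quantified on separate transcript sets, with a *CKX5* transcript of 1605 nt in *O. rufipogon* and 1928 nt in *O. sativa*, so these levels are given side by side without a test.

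**Figure D4:**
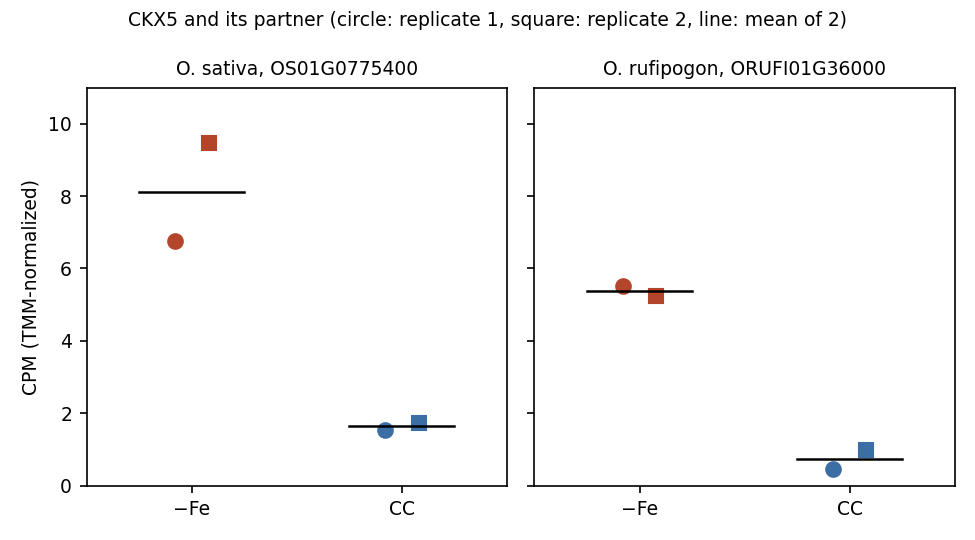
CPM (vertical axis, from 0, shared by the panels) of *CKX5* in *O. sativa* and of its *O. rufipogon* partner under −Fe and CC; circles are replicate 1, squares replicate 2 and lines the mean of 2. The −Fe libraries lie at 6.75 and 9.47 CPM in *O. sativa* and at 5.53 and 5.23 CPM in *O. rufipogon*, above every CC library.

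Among the 101 other pairs, the named genes whose log2 CPM, centred within each species, followed that of *CKX5* most closely over the 8 libraries were *IRO2* (Pearson r = 0.99), *MT4A* (r = 0.98) and *CYP714D1* (r = 0.98). *IRO2* is a bHLH transcription factor of the iron response, *MT4A* a metallothionein and *CYP714D1* a cytochrome P450 that inactivates gibberellins. All 3 rose under −Fe in both species. The log2 fold changes were 3.43 (edgeR adjusted p = 1.13e-06) in *O. sativa* and 3.39 (edgeR adjusted p = 0.000692) in *O. rufipogon* for *IRO2*. *MT4A* had 5.27 (edgeR adjusted p = 4.41e-05) in *O. sativa* and 5.32 (edgeR adjusted p = 0.000527) in *O. rufipogon*. For *CYP714D1* the values were 2.84 (edgeR adjusted p = 3.36e-05) in *O. sativa* and 2.37 (edgeR adjusted p = 0.00881) in *O. rufipogon*. Such correlations are a description, since the pairs were listed for their response to −Fe, the libraries are the same ones and fall into 2 treatments, and 53 of the 101 pairs had an r of at least 0.9 with *CKX5*.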

How the data were processed

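The reads were single-end and of 50 nt per the series' design text. Per the paper's methods, the authors discarded low-quality reads (PHRED below 30), trimmed adapters, clipped 12 nt from the 5′ end and quantified the rest with Kallisto on the transcripts of each species. Versions and the transcriptome release are not given in the sources used here, and the submitters' processing notes list IRGSP-1.0. The authors deposited estimated counts and TPM per transcript. Estimated counts were summed per gene, rounded, TMM-normalized and tested species by species in edgeR 4.0.16 under R 4.3.3 by its quasi-likelihood test (robust, at least 5 counts in at least 2 libraries, Benjamini-Hochberg). TPM was used as deposited. Standard errors are the log2 fold change divided by the square root of F. A sum was called whole within 0.01. The interaction used library sizes and TMM factors of the full tables. Alternatives were DESeq2 1.42.0, limma 3.58.1 (log2 CPM + 0.5, log2 TPM + 1 and + 0.1), median-ratio size factors, other filters, transcripts in place of genes, a replicate block and leaving out each library. Tests were tried on simulated data.

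Libraries were grouped by their titles. The series text calls the libraries of a condition biological replicates but does not say that they came from separate pots, so p values measure the spread between these libraries. The floor of 3 counts covers counting error only. The genes named are the 6 members, *CKX6* to *CKX10*, the *CKX5* partner and 3 root markers. They also include 3 iron-response genes as a check and the 3 named pairs most like *CKX5*. Members and lists were chosen with earlier results of these data known. Other cytokinin genes were planned but not analysed here, because the RefSeq table used (ASM3414082v1) does not link its names to the identifiers of the files, and no sequences were used here. Its coordinates, of another build, were not used.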

Additional observations from a re-analysis of the deposited data

How the results depend on the processing

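*CKX5* rose and passed in *O. sativa* under all 14 alternatives, with log2 fold changes from 1.56 to 2.56 and adjusted p values of 0.0226 or less. *CKX3*, *CKX4* and *CKX11* kept direction and did not pass in any of their 14. *CKX1* passed with no filter (−0.81), at least 10 counts in every library (−0.80) and a crossed block (−0.80), so that 2 members passed in each of these 3 fits. The other alternatives left it short of the FDR, by edgeR, DESeq2 or limma, with adjusted p values up to 0.271. *CKX2*, not past the FDR in any fit, ranged from −1.20 to 0.47 when a library was left out and was not tested with at least 10 counts in every library. The *O. rufipogon* partner did not pass among transcripts (2.86), without −Fe replicate 1 (2.83) or without −Fe replicate 2 (2.91). Its log2 fold change ranged from 2.40 to 3.50 without 1 library. The interaction did not pass in any of 11 alternatives, and *CKX5* was not among the pairs with at least 10 counts in every library.

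Tested among transcripts, 983 *O. sativa* and 883 *O. rufipogon* genes had at least 1 transcript past the FDR, against 1709 and 3378 genes with summed counts. Leaving out a library gave 613 to 1194 in *O. sativa* and 112 to 9604 in *O. rufipogon*. Each library moved the count by over 1.5 times except *O. sativa* −Fe replicate 2, and the lone library of a condition was assumed to vary like the others. On the TPM scale, which shifted the median of all *O. rufipogon* genes to −0.11 with a pseudocount of 0.1, 61.9% of the calls there were higher, against 74.1% by edgeR. The share was also lower by DESeq2, at 63.9%, with a median of −0.01. With the replicate number as a block, 1717 *O. sativa* and 3489 *O. rufipogon* genes passed, and the *CKX5* log2 fold change was 2.29. Deviations of same-numbered libraries correlated at −0.12 and 0.06, so the numbers are not shown to pair the libraries. A crossed pairing in *O. sativa*, added after seeing the data, gave 2036. The block of same-numbered libraries changed no call of a member. The cause of these differences was not tested. The planned motif strand alternative was not run. Precision is limited by 2 libraries per condition and, for *CKX2*, by 4 to 13 counts.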
